A study of Homo sapiens with 18 samples.

Results

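The integrin and laminin genes were 37 protein-coding genes of the 61544 genes in the deposited count tables: 25 encode integrin subunits and 12 encode laminin chains. They were chosen by symbol alone, an integrin alpha or beta subunit with a number or letter (ITGA1, ITGAV, ITGB1) or a numbered laminin alpha, beta or gamma chain (LAMA2, LAMB1, LAMC1). Integrins are receptors in the cell membrane that pair an alpha with a beta subunit and tie the extracellular matrix to the actin or keratin cytoskeleton. The alpha subunit largely sets what is bound, such as collagen, laminin or fibronectin. Laminins are secreted trimers of an alpha, a beta and a gamma chain that polymerise into basement membranes, and dermal fibroblasts both make laminin chains and carry laminin receptors.

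The cells were BJ, a fibroblast line from human skin, and their RNA was sequenced in 18 libraries that form 6 groups of 3. In the knockdown table, CRISPR interference (CRISPRi, in which a guide RNA brings a catalytically dead Cas9 to a promoter) lowered the long noncoding RNA PURPL with the guides sgRNA-PURPL#1 or sgRNA-PURPL#2, and sgCtrl is the control guide. In the overexpression table, PURPL#1-OE and PURPL#2-OE carry raised PURPL, and Ctrl is their control. The labels say neither whether PURPL#1-OE and PURPL#2-OE are lines, clones or constructs nor whether the 3 libraries of a group are separate cultures, so p-values measure the spread between these libraries, which may be technical. PURPL reached 14.1 to 17.9 CPM with sgRNA-PURPL#1 and 17.9 to 21.5 CPM with sgRNA-PURPL#2, against 71.1 to 94.3 CPM in sgCtrl. It reached 166.2 to 178.4 CPM in PURPL#1-OE and 114.3 to 128.8 CPM in PURPL#2-OE, against 59.2 to 67.3 CPM in Ctrl. CPM is the read count scaled to a common library size after TMM scaling (edgeR's trimmed mean of M values).

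Knockdown libraries held 11444513 to 12896040 counts and overexpression libraries 18858976 to 27985649. All 10 fibroblast markers had counts in every group. Their summed level was 17234 to 17296 CPM with sgRNA-PURPL#1 and 16584 to 17231 CPM with sgRNA-PURPL#2, against 16352 to 17646 CPM in sgCtrl, and 28505 to 29775 CPM in PURPL#1-OE and 31022 to 32378 CPM in PURPL#2-OE, against 23315 to 23819 CPM in Ctrl. Of 10 keratinocyte markers, 7 or 8 per group had counts, KRT1 was at 0 in every group, and the sums were 506.8 to 534.4 CPM in PURPL#1-OE and 508.4 to 563.1 CPM in PURPL#2-OE, against 513.2 to 551.4 CPM in Ctrl, and 201.1 to 210.5 CPM with sgRNA-PURPL#1 and 250.5 to 276 CPM with sgRNA-PURPL#2, against 225.6 to 289.3 CPM in sgCtrl. With sgRNA-PURPL#1 the keratinocyte sum thus lay wholly below sgCtrl, as did ITGA6 and LAMA3 (below). With sgRNA-PURPL#2 the sum overlapped sgCtrl, and ITGA6 and LAMA3 again lay wholly below sgCtrl. KRT5 and KRT14 were also at 0 in sgCtrl, so the sum there came from other markers of the list. The part of the keratinocyte sum in the ITGA6 and LAMA3 results was not tested. The 6 pericyte and smooth muscle markers summed to 46.3 to 53.5 CPM with sgRNA-PURPL#1 and 47.7 to 56.7 CPM with sgRNA-PURPL#2, against 63.9 to 69.3 CPM in sgCtrl, and to 20.5 to 22.1 CPM in PURPL#1-OE and 22.1 to 24.3 CPM in PURPL#2-OE, against 23.3 to 28.4 CPM in Ctrl. The 5 melanocyte markers summed to 70.7 to 77.2 CPM with sgRNA-PURPL#1 and 51.8 to 58.4 CPM with sgRNA-PURPL#2, against 50.7 to 60.9 CPM in sgCtrl, and to 70.6 to 77.8 CPM in PURPL#1-OE and 72.8 to 74.7 CPM in PURPL#2-OE, against 52.0 to 55.6 CPM in Ctrl. Among the melanocyte markers, MLANA was at 0 in every sgRNA-PURPL#1, PURPL#2-OE, sgCtrl and Ctrl library, and TYR in every sgRNA-PURPL#1, sgRNA-PURPL#2 and Ctrl library. The part of these 2 lists in the results was not tested. The 8 leukocyte markers summed to at most 2.44 CPM, the 8 endothelial markers to at most 7.46 CPM and the 4 Schwann markers to at most 0.935 CPM in any library. Mitochondrial genes took 4.97 to 6.24% of counts in the overexpression groups, against 4.26 to 4.80% in Ctrl, and the part of this difference, and of the higher fibroblast marker sum, in the results below was not tested. In bulk RNA, fewer cells that express a gene and less RNA per cell cannot be told apart.

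The knockdown and overexpression counts were fitted separately with edgeR's quasi-likelihood test, and a gene was called at a Benjamini-Hochberg adjusted p under 0.05 over all genes tested. Both guides share the sgCtrl libraries and both overexpression groups share the Ctrl libraries, so their values stand side by side and do not count as independent repeats. The filter on low counts passed 25 of the 37 members for the knockdown libraries and 27 for the overexpression libraries. With sgRNA-PURPL#1, 1 member was higher and 10 were lower than in sgCtrl, while 11.6% of all 13923 genes tested were higher and 12.9% lower (24.5% in either direction). With sgRNA-PURPL#2, 2 members were higher and 10 lower, beside 11.9% and 12.4% of all genes (24.4% in either direction). In PURPL#1-OE, 14 members were higher and 8 lower than in Ctrl, beside 19.5% and 20.1% of all 15267 genes tested (39.6%). In PURPL#2-OE, 12 were higher and 9 lower, beside 18.9% and 19.6% of all genes (38.5%). The median log2 fold change over members was -0.11 with sgRNA-PURPL#1 and -0.12 with sgRNA-PURPL#2, where the median of all genes was 0.0037 and -0.0014. It was 0.22 in PURPL#1-OE and 0.067 in PURPL#2-OE, where the median of all genes was 0.0076 and 0.0069. Among genes with a mean of at least 10 CPM, 47.4% of 19 members and 29.2% of 8746 genes were called with sgRNA-PURPL#1, 57.9% and 29.1% with sgRNA-PURPL#2, 85% of 20 members and 50.2% of 8235 genes in PURPL#1-OE, and 80% and 48.8% in PURPL#2-OE.

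**Figure D1:**
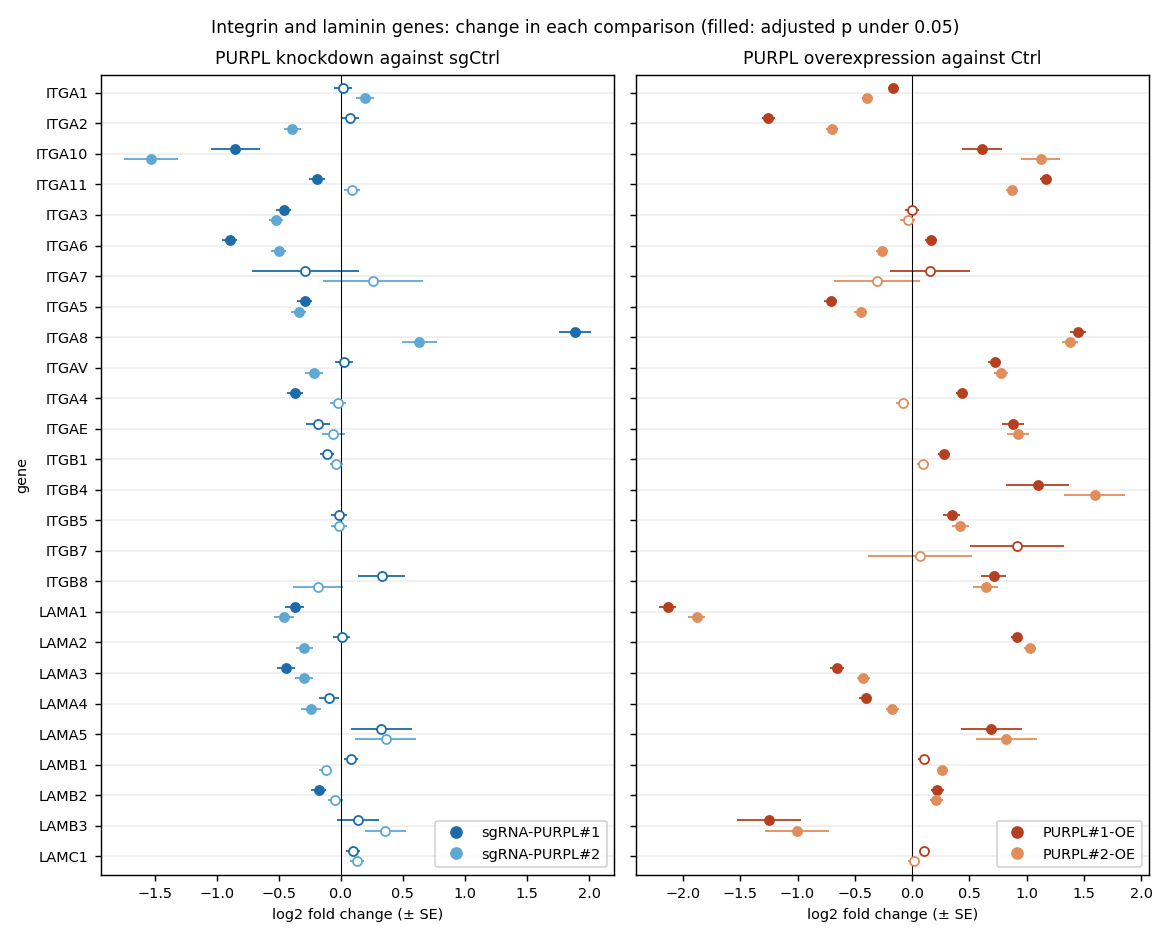
Log2 fold change (± SE) of the tested integrin and laminin genes (1 not shown), in sgRNA-PURPL#1 and sgRNA-PURPL#2 against sgCtrl (left) and in PURPL#1-OE and PURPL#2-OE against Ctrl (right); filled points have an adjusted p under 0.05. ITGA8 lies right of 0 in all 4 comparisons, and LAMA1 lies left of 0 in all 4, farthest in the overexpression groups.

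Collagen-binding alpha subunits. ITGA1, ITGA2, ITGA10 and ITGA11 pair with ITGB1 to bind collagens, ITGA11 mainly in fibroblasts and ITGA10 mainly in cartilage. Within this class ITGA11 and ITGA2 moved apart in the overexpression groups. ITGA11 stood at 352, 365 and 379.8 CPM in PURPL#1-OE libraries and 286, 299.8 and 307 CPM in PURPL#2-OE libraries, against 163, 167 and 160 CPM in Ctrl libraries. All 6 overexpression libraries lay above every Ctrl library, with a log2 fold change of 1.16 ± 0.0509 (SE) in PURPL#1-OE (edgeR adjusted p = 7.43e-18) and 0.87 ± 0.0509 (SE) in PURPL#2-OE (edgeR adjusted p = 1.08e-14). ITGA2 stood at 70.1, 68.7 and 69.7 CPM in PURPL#1-OE libraries and 105, 105 and 97.5 CPM in PURPL#2-OE libraries, against 168, 175 and 154 CPM in Ctrl libraries. Here every overexpression library lay below every Ctrl library, and the log2 fold change was -1.26 ± 0.0555 (SE) in PURPL#1-OE (edgeR adjusted p = 9.73e-18) and -0.70 ± 0.0546 (SE) in PURPL#2-OE (edgeR adjusted p = 8.68e-12). ITGA1 fell less, by 0.17 on the log2 scale in PURPL#1-OE (edgeR adjusted p = 0.00688) and by 0.39 in PURPL#2-OE (edgeR adjusted p = 1.14e-07). Per kilobase of annotated exon, ITGA11 took 64.3, 65.7 and 65.9% of the counts of these 4 genes in PURPL#1-OE libraries and 55.3, 56.3 and 57.9% in PURPL#2-OE libraries, against 32.3, 32.4 and 33.3% in Ctrl libraries. ITGA2 took 17.6, 16.97 and 16.6% in PURPL#1-OE and 27.8, 27.01 and 25.2% in PURPL#2-OE, against 45.9, 46.9 and 44.2% in Ctrl.

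With knockdown, ITGA2 fell with 1 guide. It stood at 115, 128 and 123 CPM in sgRNA-PURPL#1 libraries and 87.2, 89.2 and 88.5 CPM in sgRNA-PURPL#2 libraries, against 103, 116 and 128 CPM in sgCtrl libraries. The sgRNA-PURPL#2 libraries were the lowest of the 3 groups and ITGA2 fell there, with a log2 fold change of -0.39 ± 0.0699 (SE) (edgeR adjusted p = 7.72e-05), while sgRNA-PURPL#1 overlapped sgCtrl at 0.073 ± 0.0687 (SE) (edgeR adjusted p = 0.486). ITGA11 had 215, 216 and 219.6 CPM in sgRNA-PURPL#1 libraries and 262, 259.5 and 269.9 CPM in sgRNA-PURPL#2 libraries, against 215, 269 and 259 CPM in sgCtrl libraries. It was called lower with sgRNA-PURPL#1 at -0.19 ± 0.0663 (SE) (edgeR adjusted p = 0.0311), although 1 sgCtrl library lay within the range of that guide. That call was lost without sgCtrl replicate 2 or 3 or without any 1 library of sgRNA-PURPL#1, with edgeR adjusted p from 0.0718 to 0.212, and in a fit of these 2 groups alone (edgeR adjusted p = 0.0537). ITGA1 was called higher with sgRNA-PURPL#2, at 0.20 ± 0.0725 (SE) (edgeR adjusted p = 0.0469). That call was lost without sgCtrl replicate 1 or 2, without any 1 library of sgRNA-PURPL#1 and without sgRNA-PURPL#2 replicate 1 or 2 (edgeR adjusted p 0.0551 to 0.24) and with DESeq2 (adjusted p = 0.0781). Further, 9.92% of the ITGA1 span is shared with 3 other genes on the same strand, of which 1, PELO, is coding, so part of its counts is uncertain.

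ITGA10, at a level of a few CPM, changed in opposite directions in the 2 tables. It had 3.19, 4.52 and 4.18 CPM in sgRNA-PURPL#1 libraries and 2.89, 1.343 and 3.13 CPM in sgRNA-PURPL#2 libraries, against 6.51, 7.24 and 7.67 CPM in sgCtrl libraries. Every library of either guide lay below every sgCtrl library, and the log2 fold change was -0.85 ± 0.198 (SE) with sgRNA-PURPL#1 (edgeR adjusted p = 0.00159) and -1.53 ± 0.215 (SE) with sgRNA-PURPL#2 (edgeR adjusted p = 2.59e-06). In the overexpression table ITGA10 had 3.79, 3.37 and 4.35 CPM in PURPL#1-OE libraries and 4.999, 5.86 and 5.65 CPM in PURPL#2-OE libraries, against 2.1, 3.05 and 2.38 CPM in Ctrl libraries. It rose by 0.61 ± 0.175 (SE) on the log2 scale in PURPL#1-OE (edgeR adjusted p = 0.006) and by 1.12 ± 0.171 (SE) in PURPL#2-OE (edgeR adjusted p = 3.62e-06), with no overlap between the libraries of either group and those of Ctrl. Without Ctrl replicate 1 the PURPL#1-OE call was lost (log2 fold change 0.49, edgeR adjusted p = 0.0533).

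**Figure D2:**
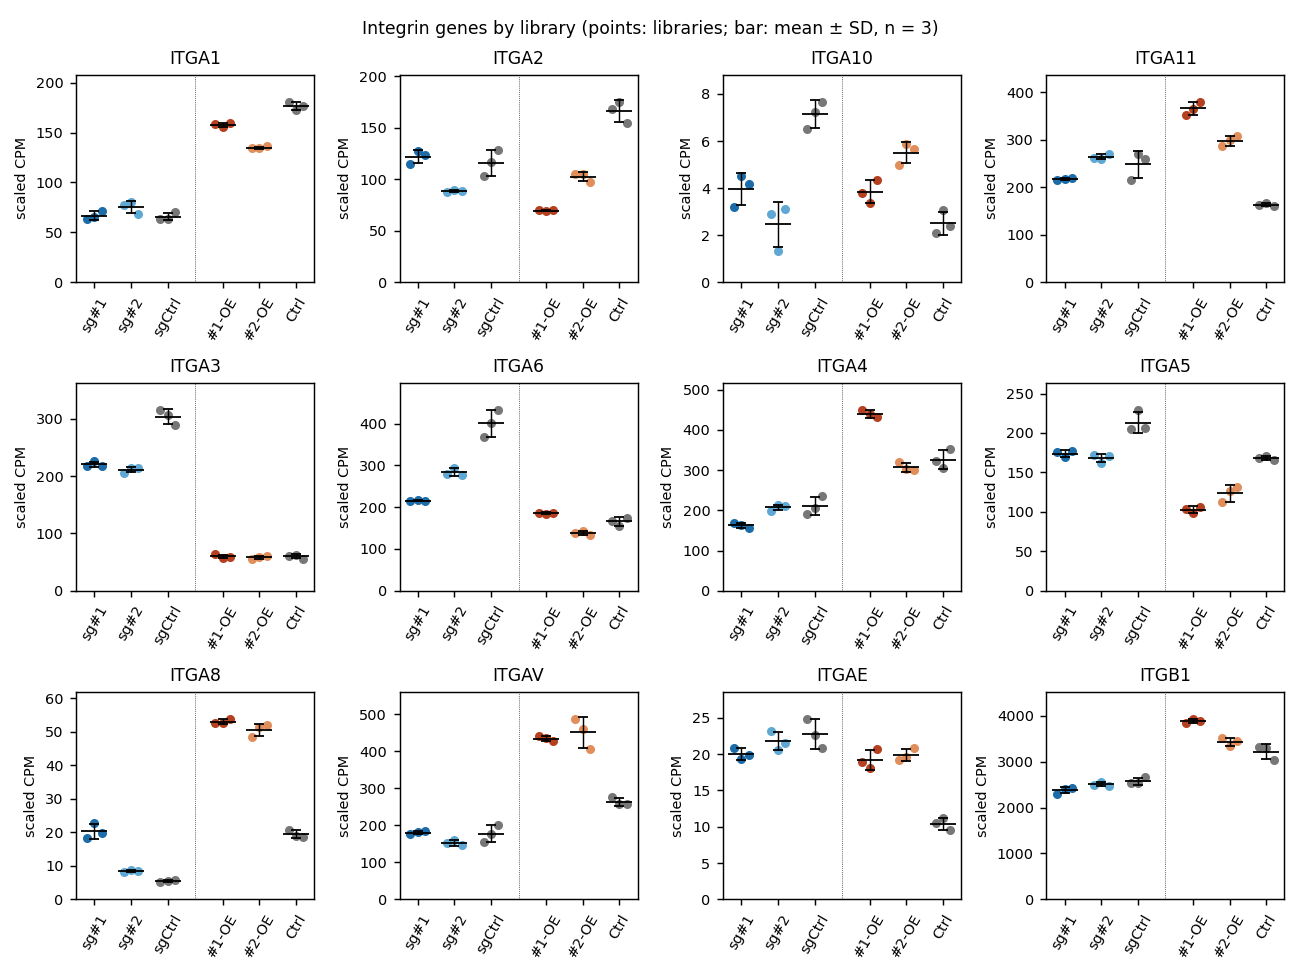
Scaled CPM of 12 integrin genes in every library (points), with mean ± SD per group (n = 3); sg#1 and sg#2 are sgRNA-PURPL#1 and sgRNA-PURPL#2, and #1-OE and #2-OE are PURPL#1-OE and PURPL#2-OE. ITGA3 and ITGA6 are lower with both guides than in sgCtrl, and ITGA8, ITGAV and ITGAE are higher in both overexpression groups than in Ctrl.

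Laminin-binding alpha subunits. ITGA3 and ITGA6 form laminin receptors with ITGB1, and ITGA6 also pairs with ITGB4 in hemidesmosomes. Both fell with both guides. ITGA6 had 215, 216 and 214 CPM in sgRNA-PURPL#1 libraries and 280, 294 and 276 CPM in sgRNA-PURPL#2 libraries, against 367, 403 and 432 CPM in sgCtrl libraries. No library of either guide reached the sgCtrl range, and the log2 fold change was -0.90 ± 0.0611 (SE) with sgRNA-PURPL#1 (edgeR adjusted p = 1.16e-12) and -0.50 ± 0.0605 (SE) with sgRNA-PURPL#2 (edgeR adjusted p = 1.88e-07). ITGA3 had 217, 226 and 218 CPM in sgRNA-PURPL#1 libraries and 206, 213 and 214 CPM in sgRNA-PURPL#2 libraries, against 315, 307 and 289 CPM in sgCtrl libraries. Both guides again lay wholly below sgCtrl, at -0.46 ± 0.057 (SE) (edgeR adjusted p = 2.02e-07) with sgRNA-PURPL#1 and -0.52 ± 0.0571 (SE) (edgeR adjusted p = 2.73e-08) with sgRNA-PURPL#2. In the overexpression table ITGA3 was lower in level and flat, with 63.5, 57.4 and 58.6 CPM in PURPL#1-OE libraries and 55.5, 58.4 and 61.1 CPM in PURPL#2-OE libraries, against 61.1, 62.5 and 56.1 CPM in Ctrl libraries. The groups overlapped, and its log2 fold change was -0.0027 ± 0.0614 (SE) in PURPL#1-OE (edgeR adjusted p = 0.978) and -0.04 ± 0.062 (SE) in PURPL#2-OE (edgeR adjusted p = 0.651). ITGA6 had 187, 183 and 187 CPM in PURPL#1-OE libraries and 139, 143 and 133 CPM in PURPL#2-OE libraries, against 168, 155 and 175 CPM in Ctrl libraries. It was called higher in PURPL#1-OE at 0.16 ± 0.0525 (SE) (edgeR adjusted p = 0.0143) and lower in PURPL#2-OE at -0.26 ± 0.0531 (SE) (edgeR adjusted p = 0.000183). The first of these calls was lost without Ctrl replicate 2 (edgeR adjusted p = 0.103) or without 1 of the unnumbered PURPL#1-OE libraries (edgeR adjusted p = 0.0535). ITGA7, the laminin receptor of muscle, ranged over 0.467 to 1.57 CPM among knockdown-table libraries and over 0.508 to 1.32 CPM among overexpression-table libraries and was called in none of these comparisons.

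RGD-binding alpha subunits. ITGA5, ITGA8 and ITGAV recognise the Arg-Gly-Asp motif of fibronectin, nephronectin, vitronectin and the latency peptide of TGF-beta. ITGA8, a receptor of mesenchymal cells for nephronectin, was higher in every comparison with a control. It had 18.4, 22.8 and 19.8 CPM in sgRNA-PURPL#1 libraries and 8.26, 8.73 and 8.53 CPM in sgRNA-PURPL#2 libraries, against 5.2, 5.53 and 5.72 CPM in sgCtrl libraries. The 3 groups did not overlap. The log2 fold change was 1.89 ± 0.126 (SE) with sgRNA-PURPL#1 (edgeR adjusted p = 6.82e-13) and 0.63 ± 0.142 (SE) with sgRNA-PURPL#2 (edgeR adjusted p = 0.00124). In the overexpression table ITGA8 had 52.5, 52.6 and 53.9 CPM in PURPL#1-OE libraries and 48.4, 51.3 and 51.97 CPM in PURPL#2-OE libraries, against 20.7, 18.9 and 18.6 CPM in Ctrl libraries. Every overexpression library was above every Ctrl library, giving 1.45 ± 0.0673 (SE) in PURPL#1-OE (edgeR adjusted p = 3.32e-17) and 1.38 ± 0.0679 (SE) in PURPL#2-OE (edgeR adjusted p = 1.55e-16).

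ITGA5, the main fibronectin receptor, was lower in all 4 comparisons with a control. Its levels were 176, 169 and 177 CPM in sgRNA-PURPL#1 libraries and 172, 162 and 171 CPM in sgRNA-PURPL#2 libraries, against 205, 229 and 206 CPM in sgCtrl libraries. Both guides lay below sgCtrl without overlap, at -0.29 ± 0.0603 (SE) (edgeR adjusted p = 0.00043) with sgRNA-PURPL#1 and -0.34 ± 0.0604 (SE) (edgeR adjusted p = 7.1e-05) with sgRNA-PURPL#2. The overexpression table gave 103, 98.2 and 107 CPM in PURPL#1-OE libraries and 112, 126 and 132 CPM in PURPL#2-OE libraries, against 168, 171 and 165 CPM in Ctrl libraries. ITGA5 fell there by 0.71 in PURPL#1-OE (SE 0.0568, edgeR adjusted p = 1.1e-11) and by 0.45 in PURPL#2-OE (SE 0.0566, edgeR adjusted p = 1.37e-07) on the log2 scale. ITGAV, which pairs with several beta subunits and binds vitronectin and latent TGF-beta, had 439.8, 434 and 426 CPM in PURPL#1-OE libraries and 487, 458 and 405 CPM in PURPL#2-OE libraries, against 275, 259 and 256 CPM in Ctrl libraries. It rose by 0.72 ± 0.0572 (SE) on the log2 scale in PURPL#1-OE (edgeR adjusted p = 1.19e-11) and by 0.78 ± 0.0573 (SE) in PURPL#2-OE (edgeR adjusted p = 2.84e-12), with no overlap with Ctrl. With knockdown, ITGAV had 175, 181 and 184 CPM in sgRNA-PURPL#1 libraries and 151, 161 and 146 CPM in sgRNA-PURPL#2 libraries, against 156, 175 and 200 CPM in sgCtrl libraries. The sgCtrl libraries ranged widely, sgRNA-PURPL#1 gave 0.025 ± 0.0701 (SE) (edgeR adjusted p = 0.841), and the call with sgRNA-PURPL#2, -0.22 ± 0.0705 (SE) (edgeR adjusted p = 0.025), was lost without sgCtrl replicate 2 or 3 or without sgRNA-PURPL#2 replicate 1 or 3 (edgeR adjusted p 0.0607 to 0.195) and in a fit of these 2 groups alone (edgeR adjusted p = 0.0622).

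Alpha subunits best known from leukocytes. ITGA4, a receptor for VCAM1 and fibronectin, had 169, 162 and 157 CPM in sgRNA-PURPL#1 libraries and 199, 213 and 209 CPM in sgRNA-PURPL#2 libraries, against 189.7, 207 and 235 CPM in sgCtrl libraries. It fell with sgRNA-PURPL#1, all 3 of whose libraries lay below sgCtrl, by 0.37 on the log2 scale (SE 0.0668, edgeR adjusted p = 8.71e-05), while sgRNA-PURPL#2 overlapped sgCtrl at -0.022 ± 0.0663 (SE) (edgeR adjusted p = 0.853). In the overexpression table its levels were 449, 439 and 431 CPM in PURPL#1-OE libraries and 320, 303 and 299 CPM in PURPL#2-OE libraries, against 321, 304 and 352 CPM in Ctrl libraries. It rose in PURPL#1-OE by 0.43 ± 0.0537 (SE) (edgeR adjusted p = 1.03e-07), and PURPL#2-OE gave -0.083 ± 0.0539 (SE) (edgeR adjusted p = 0.235). ITGAE, which in lymphocytes pairs with ITGB7 to bind E-cadherin, had 18.9, 18.1 and 20.7 CPM in PURPL#1-OE libraries and 19.1, 19.7 and 20.8 CPM in PURPL#2-OE libraries, against 10.5, 11.2 and 9.55 CPM in Ctrl libraries. All overexpression libraries exceeded all Ctrl libraries, with 0.88 ± 0.0945 (SE) in PURPL#1-OE (edgeR adjusted p = 6.49e-09) and 0.92 ± 0.0954 (SE) in PURPL#2-OE (edgeR adjusted p = 3.04e-09). With the guides and sgCtrl it ranged over 19.3 to 24.9 CPM and was called with neither guide. The partner ITGB7 was near the floor, with 48 counts over the 9 knockdown libraries, too few to be tested, and 0.107 to 1.36 CPM in the overexpression table, where the log2 fold change was 0.92 ± 0.411 (SE) in PURPL#1-OE (edgeR adjusted p = 0.0777) and 0.067 ± 0.456 (SE) in PURPL#2-OE (edgeR adjusted p = 0.929). ITGAD, ITGAL, ITGAM and ITGAX, the leukocyte partners of ITGB2, had between 1 and 9 counts in total per table, ITGA9 had 24 with knockdown and its control and 48 in the overexpression libraries, and ITGB2 had 37 and 41. None of these was tested.

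Beta subunits. ITGB1, the partner of most alpha subunits above, was by far the most abundant: per kilobase of exon it averaged 396 CPM with sgRNA-PURPL#1, 417 CPM with sgRNA-PURPL#2 and 428 CPM in sgCtrl, and 648 CPM in PURPL#1-OE, 571 CPM in PURPL#2-OE and 536 CPM in Ctrl. It took 98.1% ± 0.161 of all beta-subunit counts per kilobase in PURPL#1-OE and 97.8% ± 0.186 in PURPL#2-OE, against 98.3% ± 0.0491 in Ctrl (SD, n = 3 each). The corresponding shares were 96.6% ± 0.145 with sgRNA-PURPL#1 and 96.7% ± 0.102 with sgRNA-PURPL#2, against 96.8% ± 0.288 in sgCtrl (SD, n = 3 each). These shares leave out ITGB3, whose level is uncertain (below). The level of ITGB1 itself stood at 3849.8, 3938 and 3895 CPM in PURPL#1-OE libraries, against 3330.2, 3292 and 3037 CPM in Ctrl libraries. That rise, 0.27 ± 0.052 (SE) on the log2 scale, was called (edgeR adjusted p = 7.91e-05), and the other comparisons with a control were not, at 0.092 in PURPL#2-OE, -0.11 with sgRNA-PURPL#1 and -0.037 with sgRNA-PURPL#2.

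ITGB5, a partner of ITGAV, had 65.7, 64.7 and 77.3 CPM in PURPL#1-OE libraries and 66.8, 78.4 and 74.1 CPM in PURPL#2-OE libraries, against 56.4, 57.03 and 49.8 CPM in Ctrl libraries. It rose by 0.35 ± 0.0723 (SE) in PURPL#1-OE (edgeR adjusted p = 0.000371) and by 0.42 ± 0.0727 (SE) in PURPL#2-OE (edgeR adjusted p = 3.79e-05), and neither guide changed it past the test (-0.018 and -0.013). ITGB8, another partner of ITGAV that engages latent TGF-beta, had 15.95, 17.4 and 16.2 CPM in PURPL#1-OE libraries and 18.7, 13.96 and 14.3 CPM in PURPL#2-OE libraries, against 9.2, 10.9 and 10.1 CPM in Ctrl libraries. The overexpression groups did not overlap Ctrl, with 0.71 ± 0.109 (SE) in PURPL#1-OE (edgeR adjusted p = 3.73e-06) and 0.64 ± 0.111 (SE) in PURPL#2-OE (edgeR adjusted p = 2.34e-05). With the guides and sgCtrl, ITGB8 ranged over 2.98 to 4.79 CPM and was called with neither guide. ITGB4, the hemidesmosome partner of ITGA6, was low, at 2.93, 1.98 and 2.41 CPM in PURPL#1-OE libraries and 2.87, 4.48 and 3.19 CPM in PURPL#2-OE libraries, against 1.71, 1.02 and 0.62 CPM in Ctrl libraries. All 6 overexpression libraries exceeded all Ctrl libraries, and the log2 fold change was 1.09 ± 0.273 (SE) in PURPL#1-OE (edgeR adjusted p = 0.0019) and 1.59 ± 0.266 (SE) in PURPL#2-OE (edgeR adjusted p = 1.9e-05). ITGB4 had 65 counts over the knockdown libraries and was not tested there. ITGB6, an epithelial partner of ITGAV, had 1 and 2 counts in total, and 58.0% of its span is shared with a noncoding gene on the same strand. ITGB3 was listed at 0 in all 18 libraries. However, 99.9% of its span overlaps the coding gene ENSG00000259753 on the same strand, whose counts were 55 to 115 in each knockdown-table library and 31 to 96 in each overexpression-table library, so the level of ITGB3 is uncertain here.

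**Figure D3:**
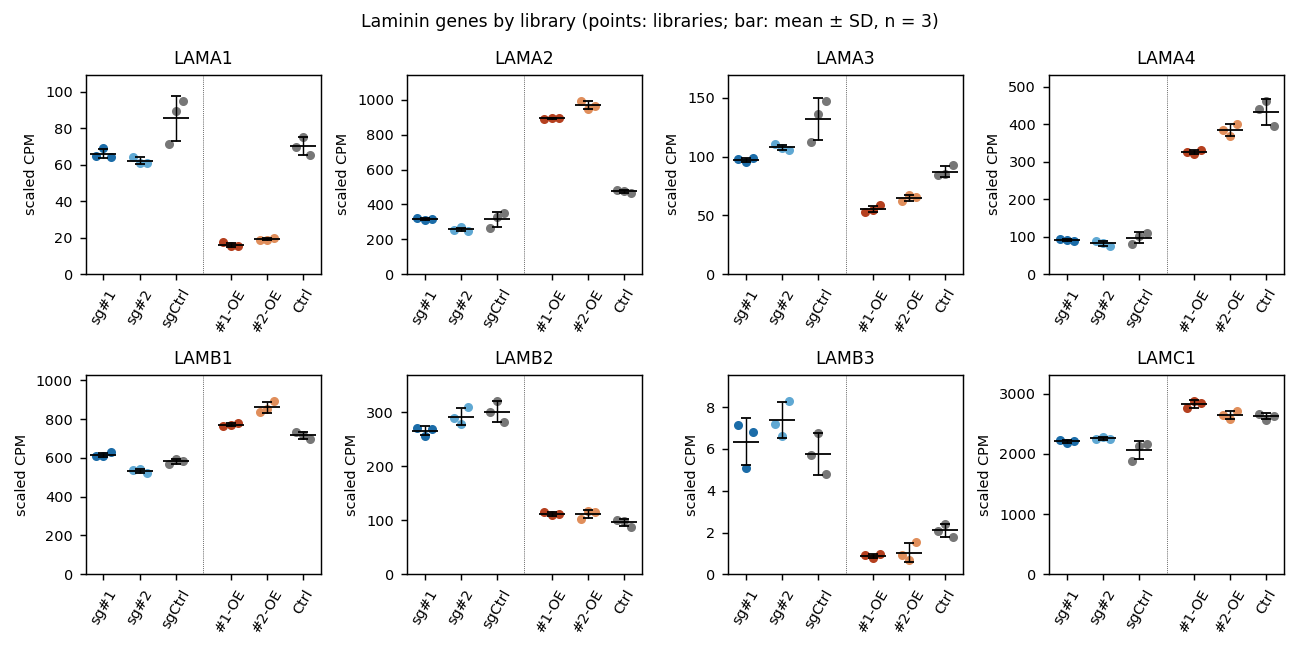
Scaled CPM of 8 laminin genes in every library (points), with mean ± SD per group (n = 3); sg#1 and sg#2 are sgRNA-PURPL#1 and sgRNA-PURPL#2, and #1-OE and #2-OE are PURPL#1-OE and PURPL#2-OE. LAMA2 is higher and LAMA1, LAMA3 and LAMB3 are lower in both overexpression groups than in Ctrl.

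Laminin alpha chains. LAMA2, the alpha chain of muscle and mesenchymal laminin, was the most abundant alpha chain per kilobase of exon, with 86.4 CPM in PURPL#1-OE, 93.6 CPM in PURPL#2-OE and 45.9 CPM in Ctrl. Its level was 890.5, 896 and 897 CPM in PURPL#1-OE libraries and 996, 947 and 966 CPM in PURPL#2-OE libraries, against 485, 476 and 466 CPM in Ctrl libraries. Every overexpression library lay far above every Ctrl library, and the log2 fold change was 0.91 ± 0.0488 (SE) in PURPL#1-OE (edgeR adjusted p = 1.07e-15) and 1.03 ± 0.0489 (SE) in PURPL#2-OE (edgeR adjusted p = 6.62e-17). In the knockdown table LAMA2 had 320.4, 313 and 315 CPM in sgRNA-PURPL#1 libraries and 253, 268 and 249.5 CPM in sgRNA-PURPL#2 libraries, against 267, 329 and 349 CPM in sgCtrl libraries. It fell with sgRNA-PURPL#2 by 0.29 on the log2 scale (SE 0.0712, edgeR adjusted p = 0.00282), although the libraries of that guide overlapped sgCtrl. With sgRNA-PURPL#1 the log2 fold change was 0.0045 ± 0.0709 (SE) (edgeR adjusted p = 0.973). One sgCtrl library, replicate 1, lay below the other 2 for LAMA1, LAMA2, LAMA3 and LAMA4 alike. The same held for ITGA2, ITGA4, ITGA6, ITGA11 and ITGAV, so this was not particular to laminin genes. Over all genes, the chi-square per gene between its counts and those of replicates 2 and 3 was 7.13 and 10.9. Between sgCtrl replicates 2 and 3 it was 4.325, and between libraries of the same PURPL guide it was 2.5 to 3.31. Without sgCtrl replicate 1, the LAMA2 log2 fold change was -0.40 with sgRNA-PURPL#2 and -0.11 with sgRNA-PURPL#1.

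LAMA1, the alpha chain of early embryonic basement membranes, had the largest change of the laminin genes named here in the overexpression groups. It had 17.3, 15.3 and 15.3 CPM in PURPL#1-OE libraries and 18.8, 18.8 and 19.7 CPM in PURPL#2-OE libraries, against 69.7, 75.3 and 65.5 CPM in Ctrl libraries. The overexpression groups lay far below Ctrl, at -2.13 ± 0.074 (SE) on the log2 scale in PURPL#1-OE (edgeR adjusted p = 2.19e-20) and -1.88 ± 0.0737 (SE) in PURPL#2-OE (edgeR adjusted p = 5.78e-19). With the guides it had 64.8, 68.9 and 64.3 CPM in sgRNA-PURPL#1 libraries and 64.4, 60.9 and 61.1 CPM in sgRNA-PURPL#2 libraries, against 71.4, 89.6 and 95.1 CPM in sgCtrl libraries. It fell there as well, by 0.37 with sgRNA-PURPL#1 (SE 0.0788, edgeR adjusted p = 0.000684) and by 0.46 with sgRNA-PURPL#2 (SE 0.0792, edgeR adjusted p = 6.14e-05), and no guide library overlapped sgCtrl. LAMA4, the alpha chain of vascular and mesenchymal basement membranes, fell in PURPL#1-OE to 326, 322 and 331 CPM, against 439.7, 463 and 395 CPM in Ctrl, with a log2 fold change of -0.41 ± 0.0551 (SE) (edgeR adjusted p = 4.76e-07). Its libraries in PURPL#2-OE, at 385, 368 and 399.8 CPM, overlapped Ctrl. The call there, -0.17 ± 0.055 (SE) (edgeR adjusted p = 0.0134), was lost without Ctrl replicate 1 or 2 or without 1 of the unnumbered PURPL#2-OE libraries (edgeR adjusted p 0.0561 to 0.0971). Among knockdown-table libraries LAMA4 ranged over 74.8 to 109 CPM. The call with sgRNA-PURPL#2, -0.24 ± 0.0822 (SE) (edgeR adjusted p = 0.0337), was lost without sgCtrl replicate 2 or 3 or without sgRNA-PURPL#2 replicate 2 or 3 (edgeR adjusted p 0.0646 to 0.194) and with DESeq2 (adjusted p = 0.0551). With sgRNA-PURPL#1, LAMA4 became called without sgCtrl replicate 1 (log2 fold change -0.21, edgeR adjusted p = 0.0109). LAMA5, the broadly expressed epithelial alpha chain, was low, at 2.25, 2.11 and 1.66 CPM in PURPL#1-OE libraries and 1.31, 2.56 and 2.82 CPM in PURPL#2-OE libraries, against 1.4, 1.17 and 1.14 CPM in Ctrl libraries. It was called higher at 0.69 ± 0.266 (SE) (edgeR adjusted p = 0.0389) in PURPL#1-OE and 0.82 ± 0.268 (SE) (edgeR adjusted p = 0.0153) in PURPL#2-OE. The first call was lost without any 1 Ctrl library or without either of 2 PURPL#1-OE libraries (edgeR adjusted p 0.0506 to 0.14) and with DESeq2 (adjusted p = 0.0629), and the second without either of 2 PURPL#2-OE libraries (edgeR adjusted p 0.0688 to 0.117).

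Within the alpha chains of a library, counts per kilobase of exon shifted towards LAMA2 in the overexpression groups. LAMA2 made up 72.3% ± 0.318 of laminin alpha counts in PURPL#1-OE and 70.6% ± 0.795 in PURPL#2-OE, against 49% ± 1.32 in Ctrl (SD, n = 3 each). The LAMA4 share was 23.6% ± 0.257 in PURPL#1-OE and 25.02% ± 0.697 in PURPL#2-OE, against 39.8% ± 1.68 in Ctrl. LAMA1 held 0.843% ± 0.0638 in PURPL#1-OE and 0.907% ± 0.0266 in PURPL#2-OE, against 4.71% ± 0.171 in Ctrl. LAMA3 held 3.16% ± 0.14 in PURPL#1-OE and 3.34% ± 0.208 in PURPL#2-OE, against 6.36% ± 0.594 in Ctrl. For each of these 4 genes the overexpression libraries did not overlap Ctrl, and the two-sided exact permutation test gave p = 0.1, the smallest that 3 against 3 libraries allow. With sgRNA-PURPL#1 the shares were 61.8% ± 0.23 for LAMA2 and 13.4% ± 0.217 for LAMA3, against 57.04% ± 0.273 and 16.9% ± 0.137 in sgCtrl (exact permutation p = 0.1 each). With sgRNA-PURPL#2 both overlapped sgCtrl, at 57.2% ± 1.25 for LAMA2 (exact permutation p = 1) and 16.9% ± 0.414 for LAMA3 (exact permutation p = 0.9). LAMA1 held 8.43% ± 0.364 with sgRNA-PURPL#1 and 9.03% ± 0.348 with sgRNA-PURPL#2, against 10.1% ± 0.0846 in sgCtrl (exact permutation p = 0.1 each). The tables list whole gene spans as gene lengths, so exon lengths were taken from the GENCODE 29 annotation.

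**Figure D4:**
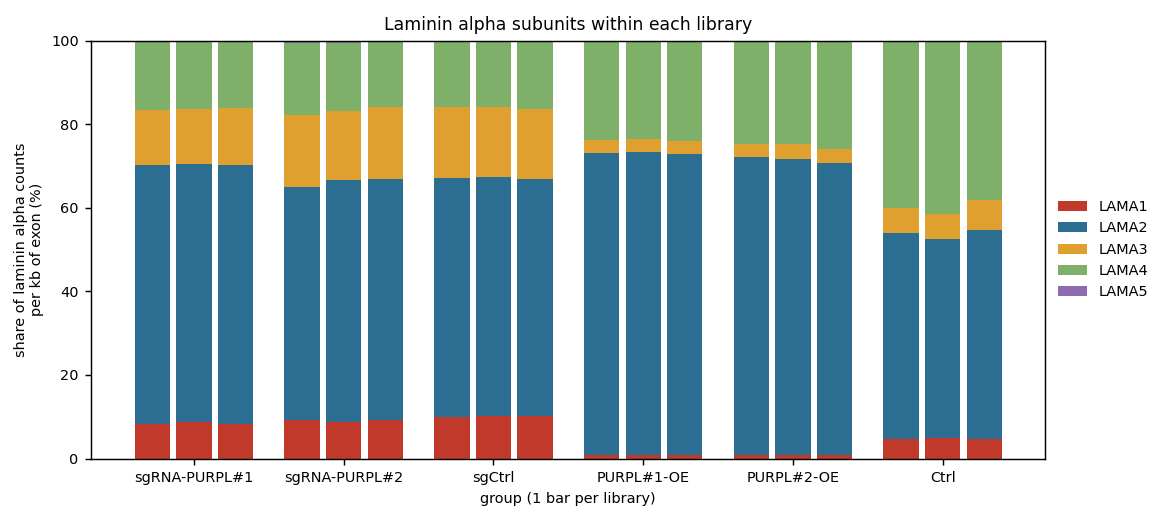
Share of each laminin alpha chain in the laminin alpha counts per kilobase of exon, in percent, 1 bar per library. LAMA2 fills a larger part of the bars of the overexpression groups (means 72.3% and 70.6%) than of those of Ctrl (49.0%), where LAMA4 is larger (39.8%).

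Laminin chains best known from epithelia. LAMA3 is an alpha chain and LAMB3 a beta chain of epithelial basement membranes, to which keratinocytes attach through ITGA6 and ITGB4. Both fell in both overexpression groups. LAMA3 had 52.98, 54.9 and 58.4 CPM in PURPL#1-OE libraries and 61.9, 67.1 and 65.9 CPM in PURPL#2-OE libraries, against 84.1, 85.2 and 92.7 CPM in Ctrl libraries. Its log2 fold change was -0.65 ± 0.059 (SE) in PURPL#1-OE (edgeR adjusted p = 1.62e-10) and -0.43 ± 0.0589 (SE) in PURPL#2-OE (edgeR adjusted p = 7.16e-07). LAMB3, the scarcer of the pair, had 0.93, 0.764 and 0.949 CPM in PURPL#1-OE libraries and 0.901, 0.693 and 1.53 CPM in PURPL#2-OE libraries, against 2.07, 2.42 and 1.81 CPM in Ctrl libraries. It fell by 1.25 in PURPL#1-OE (SE 0.279, edgeR adjusted p = 0.000568) and by 1.01 in PURPL#2-OE (SE 0.279, edgeR adjusted p = 0.00457). Neither gene had an overexpression library within the Ctrl range. The summed keratinocyte markers of these groups overlapped Ctrl, as given above, and KRT1 was at 0 in every group, Ctrl included. KRT5 was at 0 in PURPL#1-OE, PURPL#2-OE and Ctrl, and KRT14 in PURPL#2-OE and Ctrl but not in PURPL#1-OE. Only 4 of the 10 markers were tested. Of these, 1 was higher and 1 lower in PURPL#1-OE, and 0 were higher and 1 lower in PURPL#2-OE. The shares of all genes called are given above. The part of these markers in the LAMA3 and LAMB3 results was not tested.

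With knockdown LAMA3 fell and LAMB3 was not called. LAMA3 had 97.6, 95.7 and 98.7 CPM in sgRNA-PURPL#1 libraries and 110.4, 108 and 106 CPM in sgRNA-PURPL#2 libraries, against 112, 136 and 148 CPM in sgCtrl libraries. It fell by 0.44 with sgRNA-PURPL#1 (SE 0.0733, edgeR adjusted p = 3.15e-05) and by 0.29 with sgRNA-PURPL#2 (SE 0.0729, edgeR adjusted p = 0.0033), and neither guide overlapped sgCtrl. LAMB3 had 7.16, 5.07 and 6.8 CPM in sgRNA-PURPL#1 libraries and 7.19, 6.63 and 8.3 CPM in sgRNA-PURPL#2 libraries, against 5.73, 6.77 and 4.78 CPM in sgCtrl libraries. Its groups overlapped and it was called with neither guide, at 0.14 ± 0.171 (SE) (edgeR adjusted p = 0.616) and 0.36 ± 0.167 (SE) (edgeR adjusted p = 0.121).

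Of the members, 25 had an upstream window (the 250 bases before a RefSeq transcript start, build GRCh38.p14) in the promoter table used here, 32 windows in all, and LAMA1 and ITGA3, for example, had none. The AP-1 motif TGANTCA, searched on both strands, was in 5.34% of all 21471 windows and in 2 of the 32 member windows. These belong to LAMA3 and LAMB3, and the matches are shown here because both chains fell in the overexpression groups. The other LAMB3 windows hold no match. The LAMA3 window precedes a start 183567 bases inside the gene as the tables give it. The LAMB3 window with the match precedes a start 1051 bases inside. The TEAD motif GGAATG was in 10.5% of all windows and in 4 member windows, those of LAMA2, ITGA5, ITGA10 and ITGB1. Of these, LAMA2 and ITGA10 rose and ITGA5 fell in both overexpression groups, and ITGB1 rose in PURPL#1-OE. The ITGB1 window with the match precedes a start 47562 bases inside the gene. Of 250 bases, 194 in the ITGA5 window, 180 in the LAMA3 window and 139 in the ITGA10 window lie in annotated exons. For both motifs the member share is near that of all windows, and a link from matches to changes was not tested. Sequences are RefSeq's, 5′ to 3′ on the gene's strand, with the motif match in capitals. A match describes letters and is not a binding site.
LAMA3 at chr18:23872885-23872911, plus strand: tggcacaggcTGACTCAtgtgtgaagt
LAMA3 at chr18:23872941-23872967, plus strand: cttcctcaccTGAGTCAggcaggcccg
LAMB3 at chr1:209651425-209651451, minus strand: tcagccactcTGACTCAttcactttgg
LAMA2 at chr6:128882961-128882986, plus strand: ggtcaagctaGGAATGatccggtctc
ITGA5 at chr12:54419333-54419358, minus strand: cagggacccaGGAATGcccccccgcc
ITGA10 at chr1:145910126-145910151, minus strand: tcactcctccCATTCCttccaacttt
ITGB1 at chr10:32958397-32958422, minus strand: cggcgggagaGGAATGcgtttccgga
The ITGA10 match lies on the opposite strand and so reads as the reverse complement. From the match to the RefSeq start there are 118 and 62 bases in LAMA3, 60 in LAMB3 and 161 in LAMA2.

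LAMA2 was the laminin alpha chain whose share changed most in percentage points in the overexpression groups (as a ratio the LAMA1 share changed more), and its window holds no bases of an annotated exon. The whole window is given here, with the TEAD match in capitals.
LAMA2 at chr6:128882888-128883137, plus strand: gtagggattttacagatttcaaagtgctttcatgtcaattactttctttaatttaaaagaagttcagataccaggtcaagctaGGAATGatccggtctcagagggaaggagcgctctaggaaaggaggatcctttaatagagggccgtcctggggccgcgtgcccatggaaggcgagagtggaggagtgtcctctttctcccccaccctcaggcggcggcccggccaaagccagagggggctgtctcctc
No AP-1 match, GGGCGG box, TATAAA box or CCAAT box was found in these letters.

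Laminin beta and gamma chains. LAMB1 and LAMC1 form the core of most laminins. LAMC1 was the most abundant laminin gene per kilobase of exon, averaging 262 CPM with sgRNA-PURPL#1, 268 CPM with sgRNA-PURPL#2 and 245 CPM in sgCtrl, and 336 CPM in PURPL#1-OE, 315 CPM in PURPL#2-OE and 312 CPM in Ctrl. In the main fit it was called in none of the 4 comparisons with a control. Its log2 fold changes were 0.10 and 0.13 with the guides and 0.11 and 0.012 in the overexpression groups. LAMC1 became called higher in PURPL#1-OE with DESeq2 (adjusted p = 0.0495). It also became called higher with sgRNA-PURPL#2 without sgCtrl replicate 3 (edgeR adjusted p = 0.0375). LAMB1 had 762, 769 and 777 CPM in PURPL#1-OE libraries and 836, 849 and 894 CPM in PURPL#2-OE libraries, against 733, 717 and 698 CPM in Ctrl libraries. It rose in PURPL#2-OE by 0.26 ± 0.0493 (SE) (edgeR adjusted p = 6.81e-05), and PURPL#1-OE gave 0.10 ± 0.0492 (SE) (edgeR adjusted p = 0.0954). With the guides LAMB1 ranged over 520.5 to 628 CPM and was called with neither. Without sgCtrl replicate 1 it became called lower with sgRNA-PURPL#2 (edgeR adjusted p = 0.0367). LAMB2, the beta chain of neuromuscular and kidney basement membranes, rose by 0.22 ± 0.0592 (SE) in PURPL#1-OE (edgeR adjusted p = 0.00343) and by 0.21 ± 0.0595 (SE) in PURPL#2-OE (edgeR adjusted p = 0.0051). With sgRNA-PURPL#1 it was called lower at -0.18 ± 0.0607 (SE) (edgeR adjusted p = 0.0288), a call lost without sgCtrl replicate 2 or without any 1 library of that guide (edgeR adjusted p 0.0504 to 0.17). LAMB4 had 21 counts in total with knockdown and its control and 34 in the overexpression libraries, LAMC3 had 14 and 4, and neither was tested.

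The 2 guides were also compared directly. With sgRNA-PURPL#2, 3 members were higher and 5 lower than with sgRNA-PURPL#1, beside 5.51% and 3.74% of all genes (9.25% in either direction). ITGA8 differed most, at -1.26 ± 0.117 (SE) (edgeR adjusted p = 5.55e-09): sgRNA-PURPL#2 libraries stood at 8.26 to 8.73 CPM and sgRNA-PURPL#1 libraries at 18.4 to 22.8 CPM. ITGA6 was higher with sgRNA-PURPL#2 at 0.40 ± 0.0612 (SE) (edgeR adjusted p = 2.81e-05), as were ITGA4 at 0.35 (edgeR adjusted p = 0.000523) and ITGA11 at 0.28 (edgeR adjusted p = 0.00461). ITGA2 was lower at -0.47 ± 0.0698 (SE) (edgeR adjusted p = 1.81e-05), and so were LAMA2 at -0.30 (edgeR adjusted p = 0.0057), LAMB1 at -0.21 (edgeR adjusted p = 0.0117) and ITGAV at -0.24 (edgeR adjusted p = 0.0269). The calls of LAMB1 and ITGAV were each lost without at least 1 single library (edgeR adjusted p 0.0511 to 0.0822 and 0.0591 to 0.143), and without sgRNA-PURPL#1 replicate 3 or sgRNA-PURPL#2 replicate 1 the number lower was 3. Of all genes, 337 and 363 were then lower, against 521 with every library. In a fit of these 2 groups alone 6 members were higher, with ITGA1, LAMA3 and LAMB2 called as well. That fit also called 1090 of all genes higher, against 767 in the main fit.

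Between the overexpression groups, 7 members were higher and 5 lower in PURPL#2-OE than in PURPL#1-OE, beside 6.18% and 6.19% of all genes (12.4%). ITGA2 was higher at 0.56 ± 0.0561 (SE) (edgeR adjusted p = 1.65e-08), and ITGA10 at 0.51 ± 0.16 (SE) (edgeR adjusted p = 0.0323). LAMA1, LAMA3, LAMA4, LAMB1 and ITGA5 were higher by 0.16 to 0.26 on the log2 scale. ITGA4 was lower at -0.52 ± 0.0538 (SE) (edgeR adjusted p = 3.43e-08) and ITGA6 at -0.43 ± 0.0529 (SE) (edgeR adjusted p = 7.49e-07), and ITGA11, ITGA1 and ITGB1 were lower with log2 fold changes of -0.30 to -0.18. PURPL itself was lower in PURPL#2-OE than in PURPL#1-OE in every library. The calls of LAMB1, ITGB1, LAMA1, LAMA3 and ITGA10 were each lost without at least 1 single library. The number higher was 3 or 4 without any 1 of 4 unnumbered libraries, 2 of each overexpression group. Of all genes, 600 to 694 were then higher, against 943 with every library.

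A joint fit of all 18 libraries asked whether a member changed differently with knockdown than with overexpression, each against its own control. Of 27 members tested, 19 differed, 6 with a more positive and 13 with a more negative change with knockdown, beside 18% and 15.6% of all 15166 genes (33.6% in either direction). ITGA10 stood out at a difference of -2.05 ± 0.236 (SE, edgeR adjusted p = 1.56e-09), with mean log2 fold changes of -1.19 over the guides and 0.86 over the overexpression groups. LAMA1 differed by 1.59 ± 0.0927 (SE, edgeR adjusted p = 1.53e-18): it fell on both sides, with means of -0.41 over the guides and -2.01 over the overexpression groups. LAMA2 differed by -1.11 ± 0.0782 (SE, edgeR adjusted p = 9.58e-16), ITGA11 by -1.06 ± 0.0755 (SE, edgeR adjusted p = 1.17e-15) and ITGAE by -1.02 ± 0.116 (SE, edgeR adjusted p = 1.2e-09), each raised with overexpression. LAMB3 differed by 1.38 ± 0.263 (SE, edgeR adjusted p = 4.34e-05). For ITGA8 no difference was found, at -0.15 ± 0.129 (SE, edgeR adjusted p = 0.406), with means of 1.26 over the guides and 1.41 over the overexpression groups, although the guides differ from each other. ITGB8 was called as different at -0.60 ± 0.192 (SE, edgeR adjusted p = 0.013), a call lost without sgCtrl replicate 1 (edgeR adjusted p = 0.0554). LAMA3 was not called, at 0.18 ± 0.0831 (SE, edgeR adjusted p = 0.098), and was called without sgCtrl replicate 3 (edgeR adjusted p = 0.0127). Levels themselves also differ between the tables, such as ITGA3 at 304 CPM in sgCtrl and 59.9 CPM in Ctrl. Table and control cannot be told apart there, so only changes within a table are compared.

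**Figure D5:**
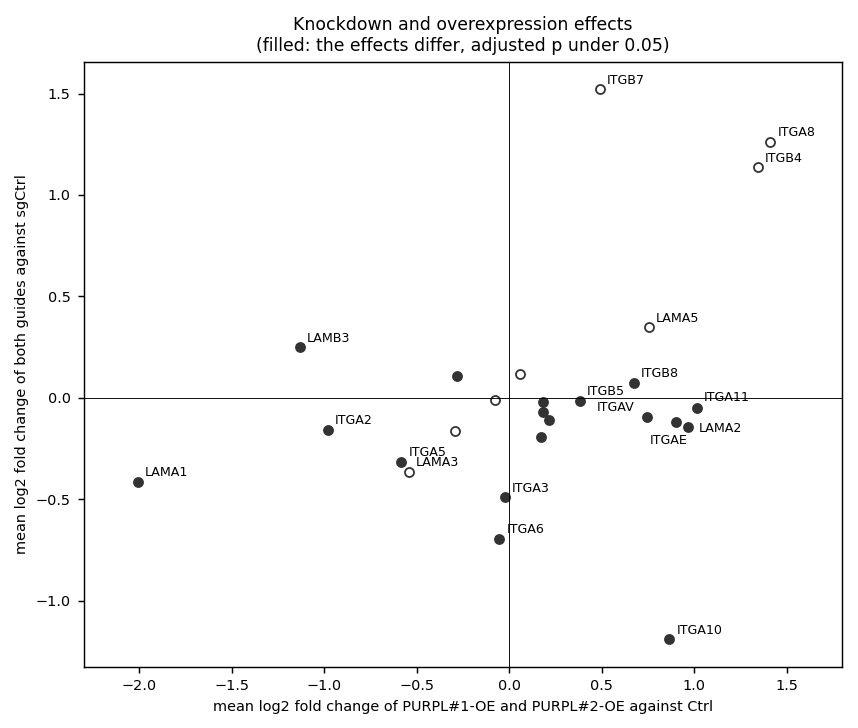
Mean log2 fold change of both guides against sgCtrl (vertical axis) and of both overexpression groups against Ctrl (horizontal axis) for the members of the joint fit (1 not shown); filled points differ between knockdown and overexpression at an adjusted p under 0.05. ITGA10 lies low on the right and LAMA1 far to the left, while ITGA8 lies high on the right and is not called as different.

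Genes that work with integrins and laminins were counted in 5 lists. Beside these counts, the shares of all genes called higher and lower were 11.6% and 12.9% with sgRNA-PURPL#1, 11.9% and 12.4% with sgRNA-PURPL#2, 19.5% and 20.1% in PURPL#1-OE, and 18.9% and 19.6% in PURPL#2-OE. Of 24 tested adaptors that link integrins to actin, 1 was higher and 12 lower with sgRNA-PURPL#1, and 3 were higher and 7 lower with sgRNA-PURPL#2. In PURPL#1-OE 14 were higher and 3 lower, and in PURPL#2-OE 11 were higher and 2 lower. The LIM-domain partner of ILK, LIMS2, was at -0.43 ± 0.0872 with sgRNA-PURPL#1 (edgeR adjusted p = 0.000417), 1.05 ± 0.0984 in PURPL#1-OE (edgeR adjusted p = 3.49e-10) and 0.87 ± 0.1 in PURPL#2-OE (edgeR adjusted p = 3.06e-08; log2 fold change ± SE). With sgRNA-PURPL#2, LIMS2 was not among the 4 called adaptors with the largest change. Other adaptors went the other way. TLN2 rose with sgRNA-PURPL#2 (0.36 ± 0.0724) and fell in PURPL#1-OE (-0.72 ± 0.0608), and FERMT2 rose with sgRNA-PURPL#2 (0.35 ± 0.0623). Of 16 tested basement membrane partners, 4 were higher and 3 lower with sgRNA-PURPL#1, and 7 and 3 with sgRNA-PURPL#2. In PURPL#1-OE 13 were higher and 2 lower, and in PURPL#2-OE 10 and 1. NTN4, a netrin that binds laminin and disrupts its networks, fell with the guides, at -1.21 ± 0.0593 with sgRNA-PURPL#1 (edgeR adjusted p = 8.28e-16) and -0.82 ± 0.0586 with sgRNA-PURPL#2 (edgeR adjusted p = 3.31e-12). The type IV collagen chains COL4A5 and COL4A6 rose in PURPL#1-OE (0.84 ± 0.0529 and 0.81 ± 0.19) and PURPL#2-OE (0.69 ± 0.0533 and 0.88 ± 0.193), and AGRN, a proteoglycan that links laminin to dystroglycan, fell in PURPL#1-OE (-1.02 ± 0.141) and PURPL#2-OE (-0.99 ± 0.144). With sgRNA-PURPL#1, COL4A6 also rose (0.78 ± 0.164, edgeR adjusted p = 0.000543) and AGRN also fell (-0.55 ± 0.0909, edgeR adjusted p = 6.72e-05).

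Of 9 other laminin receptors, set against the same shares of all genes, 1 was higher and 3 lower with sgRNA-PURPL#1, 2 and 3 with sgRNA-PURPL#2, 4 and 1 in PURPL#1-OE, and 4 and 2 in PURPL#2-OE. The syndecans SDC1 and SDC4, which bind laminin through heparan sulfate, fell with sgRNA-PURPL#1 (-0.63 ± 0.0703 and -0.86 ± 0.0666) and with sgRNA-PURPL#2 (-0.60 ± 0.0702 and -0.32 ± 0.0647). Dystroglycan, DAG1, rose in PURPL#1-OE (0.54 ± 0.0811) and PURPL#2-OE (0.40 ± 0.0817). The 6 tetraspanins, which gather ITGA3 and ITGA6 into membrane complexes, gave 0 higher and 5 lower with sgRNA-PURPL#1 and 0 higher and 4 lower with sgRNA-PURPL#2, and 0 and 2 in PURPL#1-OE and 1 and 0 in PURPL#2-OE. CD9 fell with sgRNA-PURPL#1 (-0.41 ± 0.073) and sgRNA-PURPL#2 (-0.39 ± 0.0729), and in PURPL#2-OE it rose (0.60 ± 0.0714). Of 13 other integrin ligands, 5 were higher and 1 lower with sgRNA-PURPL#1, 9 and 2 with sgRNA-PURPL#2, 8 and 5 in PURPL#1-OE, and 4 and 5 in PURPL#2-OE. POSTN, a ligand of ITGAV integrins, rose with the guides (2.83 ± 0.47 with sgRNA-PURPL#1 and 2.88 ± 0.468 with sgRNA-PURPL#2) and fell in PURPL#1-OE (-1.20 ± 0.058) and PURPL#2-OE (-1.84 ± 0.0601). The median log2 fold change with sgRNA-PURPL#1 was -0.22 over the adaptors, 0.029 over the basement membrane partners, -0.062 over the other laminin receptors, -0.31 over the tetraspanins and 0.21 over the other ligands. With sgRNA-PURPL#2 these medians were -0.10, 0.046, -0.026, -0.31 and 0.36 in the same order of lists. In PURPL#1-OE they were 0.18, 0.39, 0.325, -0.18 and 0.23, and in PURPL#2-OE 0.20, 0.26, 0.14, -0.036 and 0.067, beside the medians of all genes given above.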

How the data were processed

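Poly(A) RNA of BJ cells was sequenced on a DNBSEQ-T7, per the labels' protocols, with PCR and no molecular identifiers. Standard errors and p-values cover the spread between libraries. The authors deposited 2 tables of raw counts per gene (61544 genes, 9 libraries each). The submitters' processing notes name cutadapt 3.3, HISAT2 2.1.0, featureCounts 2.0.1, DESeq2 1.34.0 and GRCh38.p13. Annotation release and strand setting: not given in the sources used here, so overlapping genes are uncertain. The labels give the molecule as genomic DNA, against their RNA protocol.

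From the counts, edgeR 4.0.16 in R 4.3.3 (filterByExpr with a minimum count of 10 and total of 15, TMM scaling, robust quasi-likelihood fit, 6 residual degrees of freedom per table) gave log2 fold changes and Benjamini-Hochberg adjusted p-values over all genes tested. Family shares used exon lengths of GENCODE 29, matched for all 37 members, and an exact permutation test. On simulated counts for sgRNA-PURPL#1 against sgCtrl (13923 genes), 71% of 200 genes changed 1.5-fold and 93% of 200 changed 2-fold were recovered. For PURPL#1-OE against Ctrl (15267 genes) the shares were 66.5% and 87%. Unchanged genes were called as well, 11 at either fold in the first comparison and 15 and 12 in the second. Each run changed 200 genes, fewer than were called in the data. Alternatives were DESeq2 1.42.0, RLE scaling, no filter, fits of 2 groups, a replicate block and leaving out each library. The background at 10 CPM or more was added after seeing the data. Full statistics went to members called with an absolute log2 fold change of at least 0.5 in a comparison with a control, and up to 4 called genes per pathway list and comparison could be named. The members and lists were chosen with earlier results of these data known. Counts over members include 1 gene whose own values are not reported here.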

Additional observations from a re-analysis of the deposited data

Results flagged for a closer look

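By edgeR's direct test of sgRNA-PURPL#2 against sgRNA-PURPL#1, the guides differed in 8 integrin and laminin genes (25 tested, 9.25% of all genes called). As log2 fold changes, ITGA6 (0.40), ITGA4 (0.35) and ITGA11 (0.28) were higher with sgRNA-PURPL#2, and ITGA8 (-1.26), ITGA2 (-0.47), LAMA2 (-0.30), ITGAV (-0.24) and LAMB1 (-0.21) were lower with it. ITGA8 was the largest, and it was still above sgCtrl with either guide. The calls of LAMB1 and ITGAV were each lost without at least 1 single library, as given above.

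By the same test of PURPL#2-OE against PURPL#1-OE, the overexpression groups differed in 12 of these genes (27 tested, 12.4% of all genes called). Those higher in PURPL#2-OE were ITGA2 (0.56), ITGA10 (0.51), ITGA5 (0.26), LAMA1 (0.25), LAMA4 (0.23), LAMA3 (0.23) and LAMB1 (0.16), and those lower were ITGA4 (-0.52), ITGA6 (-0.43), ITGA11 (-0.30), ITGA1 (-0.23) and ITGB1 (-0.18). For ITGA6 this difference runs across 0 when each group is set against Ctrl, with -0.26 in PURPL#2-OE and 0.16 in PURPL#1-OE. The calls of LAMB1, ITGB1, LAMA1, LAMA3 and ITGA10 were each lost without at least 1 single library, as given above. The part of the differing PURPL levels of these groups was not tested.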

How the results depend on the processing

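No log2 fold change of an integrin or laminin gene that passed the test changed sign under any alternative run. With RLE size factors all 183 values stayed on their side of the threshold. Of as many values, 179 did without a filter on low counts (3 calls lost, 1 gained) and 178 with DESeq2 (4 lost, 1 gained). In fits of only the 2 groups compared, which give fewer values, 147 did, 5 calls were lost and 4 were gained, a gain being ITGB7 in PURPL#1-OE (edgeR adjusted p = 0.0281). The number of members higher with sgRNA-PURPL#2 was 1 in place of 2 without the filter, with DESeq2, in the fit of 2 groups and with the replicate block, ITGA1 being the call lost. Of all genes, 1393 to 1581 were higher under these settings, in place of 1663. The number higher with sgRNA-PURPL#2 than with sgRNA-PURPL#1 was 6 in place of 3 in the fit of 2 groups. Of all genes, 1090 were higher in that fit, in place of 767. Same-numbered knockdown libraries did not deviate together (correlations -0.0888 to 0.0386), and with a replicate block 74 of 75 values stayed on their side of the threshold. No paired analysis was possible in the overexpression table because 5 of its columns carry no replicate number.

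With 1 library left out, the number of members higher was 1 in every case with sgRNA-PURPL#1, 1 to 3 with sgRNA-PURPL#2, 12 to 15 in PURPL#1-OE and 11 to 12 in PURPL#2-OE. The number lower was 8 to 11, 8 to 11, 8 to 8 and 8 to 9 in the same order. Of all genes, 1162 to 1787, 1267 to 1763, 2494 to 3072 and 2460 to 2859 were then higher, again in that order. Those lower were 1457 to 1884, 1324 to 1804, 2638 to 3172 and 2613 to 2941. Between the guides 3 to 4 were higher and 3 to 6 lower with sgRNA-PURPL#2, and between the overexpression groups 3 to 7 were higher and 4 to 5 lower in PURPL#2-OE. Over all genes, 544 to 1043 were higher and 337 to 712 lower between the guides. Between the overexpression groups, 600 to 1052 of all genes were higher and 659 to 1021 lower. In the joint fit 18 to 20 members differed, beside 4549 to 5105 of all genes. The causes of these losses were not tested. No alternative varied the depth.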
